A study of Mus musculus with 6 samples.

Results

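Mitochondrial ribosomal protein genes were described in mouse embryonic stem cells (ESCs) with and without a gene trap in 1 allele of Srrm2. The members were the protein-coding genes whose symbol begins with Mrpl or Mrps followed by a number. The annotation lists 78 such genes and 77 of them were in the table of 42450 genes, 48 with Mrpl symbols and 29 with Mrps symbols. Mrpl33 was not analysed here. The rule uses symbols and no measured value, and all 77 passed the filter on low counts, with no fewer than 69 counts for any member in any library.

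Total RNA was sequenced from 2 groups of 3 replicates each. The WT group was the male line E14tg2a.4. The Srrm2+/- group was the gene-trap line CG0630, made in the same parental line, which carries a trap cassette that truncates 1 allele of Srrm2, a gene for a scaffold protein of nuclear speckles. Both were grown on gelatin with LIF and moved to serum-free ESGRO medium with LIF before collection. Srrm2+/- cells came from a single clone, and the study froze WT stocks at later passages, so genotype, clone and passage cannot be told apart. Library totals ranged from 54151532 to 69933465 estimated counts. Srrm2 itself was at 91.2, 98.3 and 97.7 CPM (counts scaled to the size of the library) in WT and at 62.3, 56.2 and 59.6 CPM in Srrm2+/-. The fitted change in log2 was -0.69 (SE 0.050, adjusted p = 2.38e-05 by edgeR), in the direction of the labels.

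The mitochondrial ribosome (mitoribosome) translates the few mRNAs encoded by mitochondrial DNA, all of them for subunits of the oxidative phosphorylation machinery. Its rRNAs come from the mitochondrial genome, whereas all of its proteins are encoded in the nucleus, translated in the cytosol and imported. The large subunit forms peptide bonds and the small subunit reads the mRNA. Some of its proteins descend from the ribosome of the bacterial ancestor and others were added in the mitochondrial lineage.

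Mitochondrial ribosomal protein mRNAs differed little between WT and Srrm2+/- cells. Their log2 fold changes, Srrm2+/- over WT, ran from -0.21 (Mrpl1) to 0.42 (Mrpl34), with a median of -0.01. At an adjusted p under 0.05, 12 of 77 members (15.6%) were called, 6 upregulated and 6 downregulated, beside 25.3% of the 18905 genes tested (13.6% upregulated and 11.7% downregulated). The WT and Srrm2+/- libraries did not overlap in CPM for 26 members (33.8%), beside 41.4% of all tested genes. Both shares lay under those of all genes. As CPM are shares of the sequenced RNA, and the samples are bulk, fewer cells that express a gene and less of its RNA per cell cannot be told apart.

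**Figure D1:**
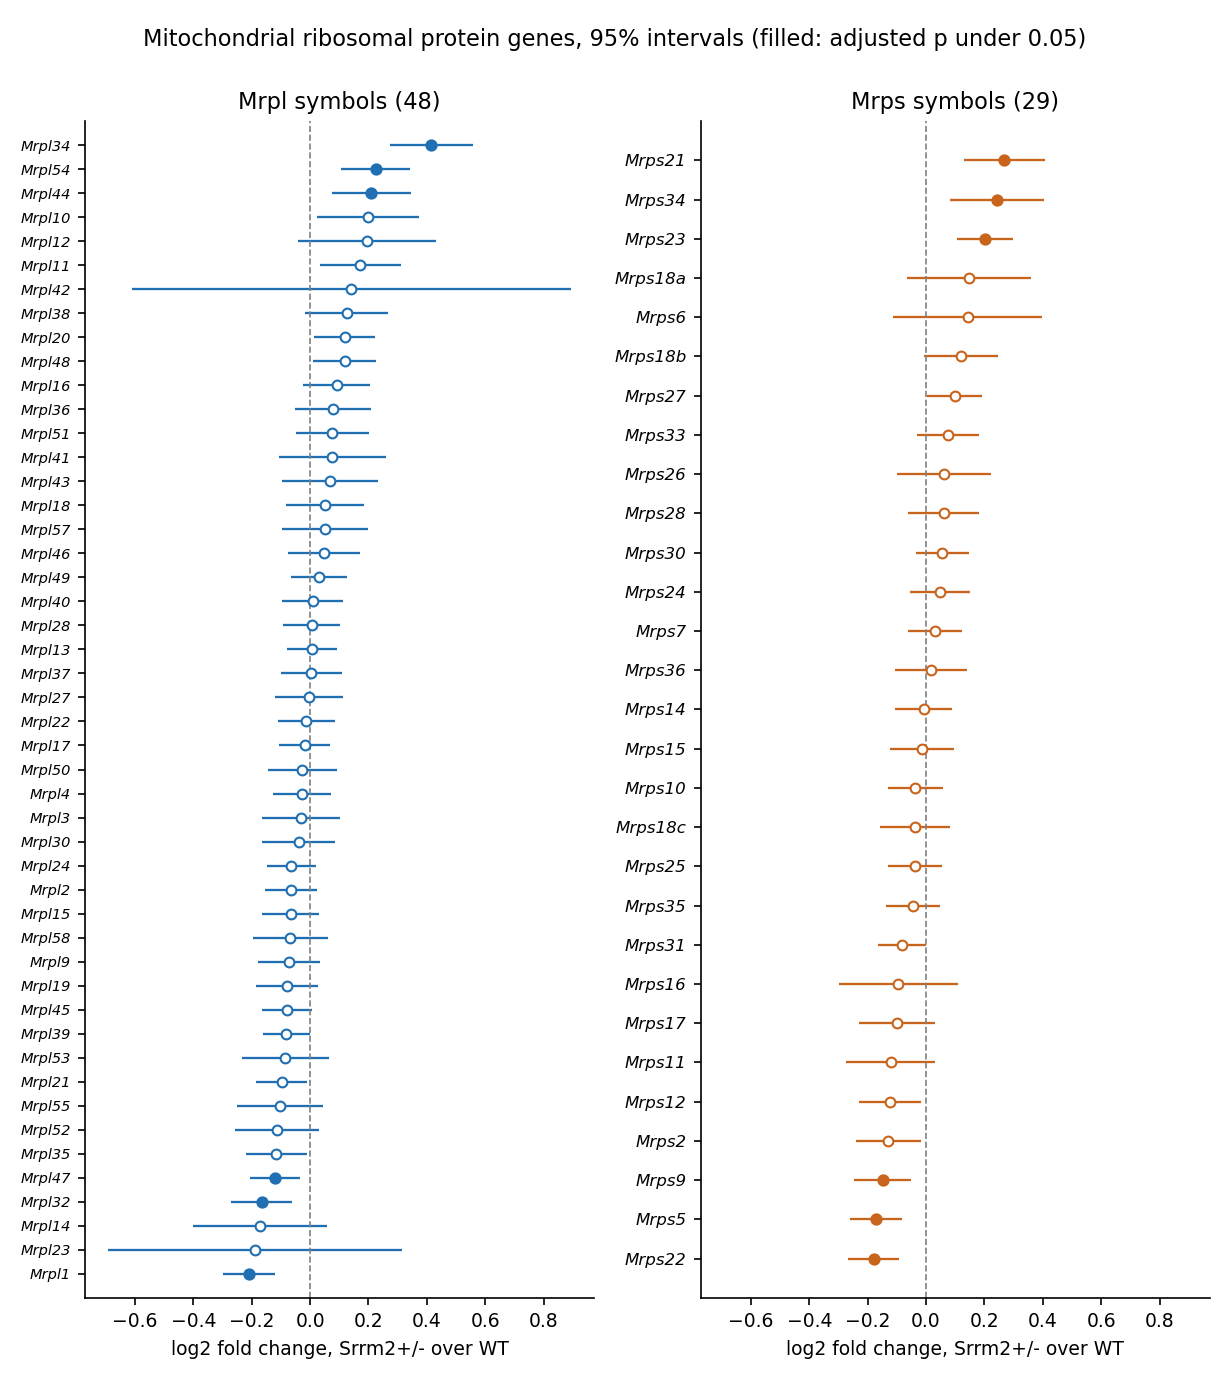
Log2 fold change of each of the 77 members, Srrm2+/- over WT (x axis), with its 95% confidence interval, for the 48 Mrpl genes (left) and the 29 Mrps genes (right). Filled points passed an adjusted p of 0.05 (12 members); the long intervals belong to Mrpl42 and Mrpl23, the members with the fewest counts.

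The changes were small in size as well as in number. The absolute log2 fold change was under 0.25 for 75 of 77 members (97.4%), compared with 58.0% of all tested genes. Among 6027 protein-coding genes with a mean log2 CPM in the range of the members (3.62 to 6.81), that share was 78.8% and 33.3% were called. The 95% confidence interval of the change stayed between -0.32 and 0.32 on the log2 scale for 65 members (84.4%), beside 67.4% of those protein-coding genes and 32.2% of all tested genes. For most members the data therefore bounded any difference to less than 0.32 on the log2 scale, in either direction. The SD of the log2 fold changes was 0.12 over the members and 0.35 over the protein-coding genes of similar expression.

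The counts of large and small subunit genes are given side by side, and the difference between them was not tested. Of the 48 Mrpl genes, 3 were upregulated and 3 downregulated (12.5% called, median log2 fold change -0.01). Of the 29 Mrps genes, 3 were upregulated and 3 downregulated (20.7% called, median -0.01). Summed over the 48 Mrpl genes, expression was 2320, 2390 and 2364 CPM in WT and 2352, 2326 and 2323 CPM in Srrm2+/-. Summed over the 29 Mrps genes, it was 1371, 1415 and 1384 CPM in WT and 1383, 1373 and 1354 CPM in Srrm2+/-. The groups overlapped in both sums. The Mrpl sum divided by the Mrps sum gave 1.696 ± 0.0097 for WT (SD, n = 3) and 1.704 ± 0.011 for Srrm2+/-. The means of both sums were lower in Srrm2+/- on the CPM scale (by 1.02% and 1.45%) and higher on the scale of level per length (2.17% and 2.71%), so their direction depended on the scale.

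Among upregulated members, Mrpl34 showed the largest rise. It encodes a small protein of the large subunit with a bacterial homologue (ENSMUSG00000034880, chr8:71464959-71465747, GRCm38). Mrpl34 was at 18.2, 19.3 and 21.02 CPM in WT and at 25.2, 26.0 and 26.9 CPM in Srrm2+/-. Every Srrm2+/- library lay above every WT library, with group means of 19.5 ± 1.42 and 26.0 ± 0.821 CPM (SD, n = 3). The log2 fold change was 0.42 (SE 0.063, adjusted p = 0.0015), a rise of 33.4%, and Mrpl34 was the only called member with an absolute log2 fold change of 0.32 or more. None of its 31-base words occurred in another annotated transcript, so reads from it have no second annotated source.

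Both other Mrpl genes that rose encode proteins absent from bacterial ribosomes. Mrpl54 (ENSMUSG00000034932) was at 24.9, 27.0 and 24.8 CPM in WT and at 30.6, 29.4 and 29.7 CPM in Srrm2+/-. The groups did not overlap and the log2 fold change was 0.22 (SE 0.052, adjusted p = 0.013). Mrpl44 (ENSMUSG00000026248), whose product has an RNase III-like fold, was at 20.002, 23.1 and 21.9 CPM in WT and at 25.2, 24.8 and 25.2 CPM in Srrm2+/-. Its 3 Srrm2+/- libraries were closely grouped above a wider WT range (log2 fold change 0.21, SE 0.060, adjusted p = 0.032). The call of Mrpl44 was lost under 6 of 14 alternatives, and its exons overlap those of Wdfy1 on the opposite strand.

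In the small subunit, Mrps21, Mrps34 and Mrps23 were upregulated. Mrps21 (ENSMUSG00000054312), which encodes the homologue of bacterial S21, was at 18.8, 20.7 and 19.4 CPM in WT and at 22.6, 23.2 and 25.04 CPM in Srrm2+/-. It rose by 20.5% without overlap between the groups (log2 fold change 0.27, SE 0.061, adjusted p = 0.011). Its closest pseudogene, Gm6181, was at 0 counts in all 6 libraries. Mrps23 (ENSMUSG00000023723), a gene for a mitochondria-specific protein, was at 37.8, 38.2 and 39.6 CPM in WT and at 44.6, 44.4 and 43.9 CPM in Srrm2+/-. The difference was several times the spread within either group (log2 fold change 0.20, SE 0.042, adjusted p = 0.0073).

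Mrps34 (ENSMUSG00000038880) encodes another mitochondria-specific protein of the small subunit. It was at 23.5, 25.3 and 26.0 CPM in WT and at 30.9, 26.6 and 31.1 CPM in Srrm2+/-. The lowest Srrm2+/- library was close to the highest WT library (log2 fold change 0.24, SE 0.071, adjusted p = 0.035), and the call was lost under 5 of 14 alternatives. Mrps34 lies in a crowded stretch of chromosome 17, and 73.8% of its 31-base words occur in transcripts of other genes, 56.8% in Mapk8ip3 on the opposite strand and 35.6% in Nme3 on the same strand. Neither neighbour passed the test, with log2 fold changes of 0.09 (adjusted p = 0.40) and -0.09 (adjusted p = 0.56). The value of Mrps34 is thus uncertain, as the counting could divide reads among these genes.

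**Figure D2:**
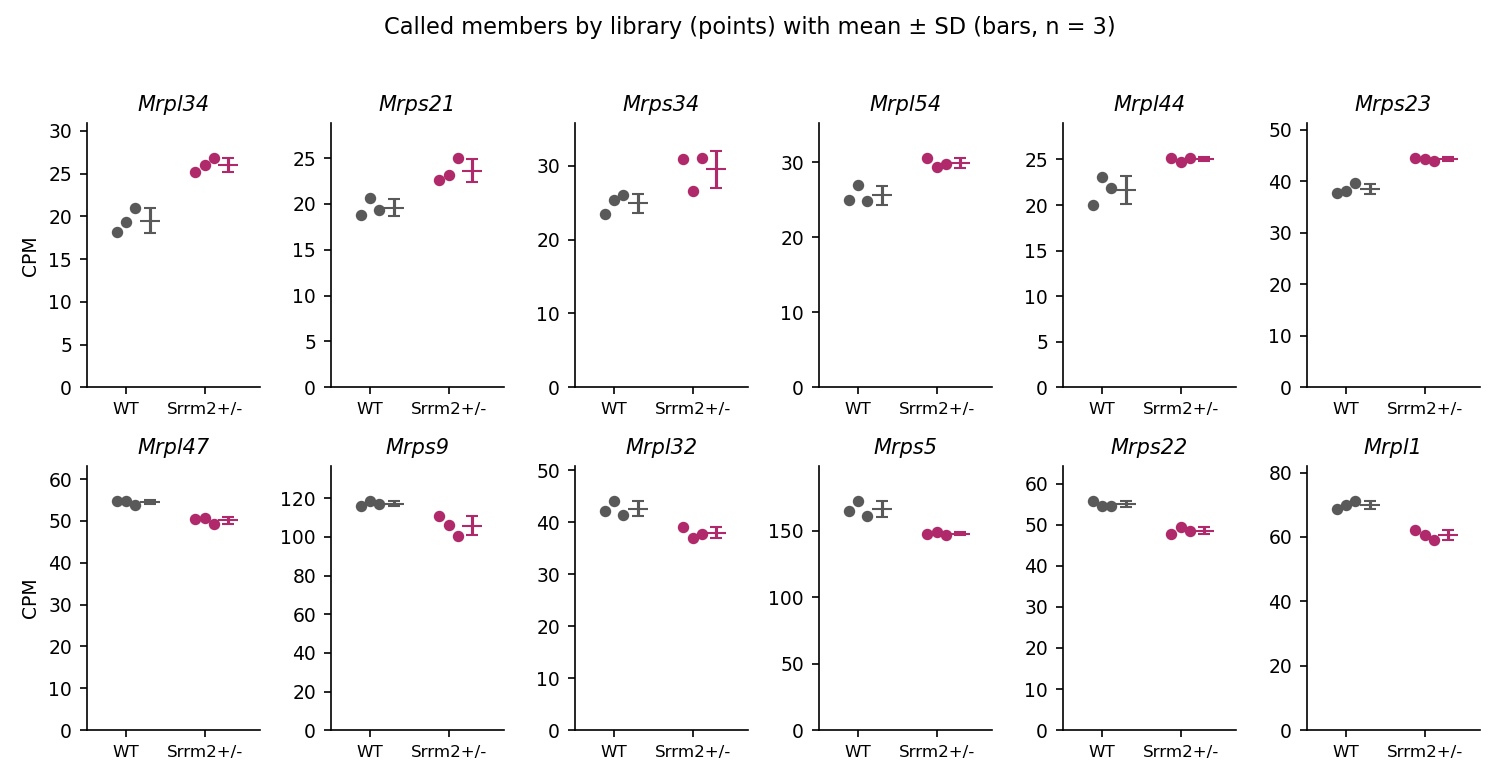
Normalised expression in CPM (y axis, from 0) of the 12 members that passed the test, by library (points, WT and Srrm2+/-), with mean ± SD (n = 3). The upper row holds the 6 upregulated members and the lower row the 6 downregulated members; the groups do not overlap in any panel, and Mrps34 has the narrowest gap relative to its spread.

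Mrpl1 showed the largest fall. It encodes the homologue of bacterial L1, the protein of the mobile stalk near the tRNA exit site (ENSMUSG00000029486, chr5:96209493-96266727). Mrpl1 was at 68.7, 70.01 and 71.3 CPM in WT and at 62.3, 60.6 and 58.9 CPM in Srrm2+/-. All Srrm2+/- libraries were lower than all WT libraries, with means of 70.01 ± 1.29 and 60.6 ± 1.68 CPM (SD, n = 3). The log2 fold change was -0.21 (SE 0.039, adjusted p = 0.0045), a change of -13.5%.

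The other Mrpl genes that fell were Mrpl32 and Mrpl47. Mrpl32 (ENSMUSG00000015672), a bacterial L32 homologue that is cleaved by the m-AAA protease on the way into the ribosome, was at 42.2, 44.2 and 41.4 CPM in WT and at 39.1, 37.0 and 37.8 CPM in Srrm2+/-. It fell without overlap (log2 fold change -0.17, SE 0.046, adjusted p = 0.029), and the call was lost under 5 of 14 alternatives. Mrpl47 (ENSMUSG00000037531), the homologue of bacterial L29, was at 54.7, 54.9 and 53.9 CPM in WT and at 50.5, 50.7 and 49.2 CPM in Srrm2+/-. This was the smallest change called (log2 fold change -0.12, SE 0.038, adjusted p = 0.047), and the call was lost under 11 of 14 alternatives, DESeq2 and limma among them. Mrpl47 shares 13.4% of its words with Ndufb5 and 9.64% with Actl6a, which flank it on the opposite strand. Ndufb5, a complex I subunit gene, was itself downregulated (log2 fold change -0.19, adjusted p = 0.0078), and its part in the value of Mrpl47 was not tested.

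Mrps22, Mrps5 and Mrps9 were downregulated in the small subunit. Mrps22 (ENSMUSG00000032459), a gene for a mitochondria-specific protein, was at 55.9, 54.5 and 54.6 CPM in WT and at 47.7, 49.5 and 48.5 CPM in Srrm2+/- (log2 fold change -0.18, SE 0.039, adjusted p = 0.0093). Mrps5 (ENSMUSG00000027374), for the homologue of bacterial S5 near the mRNA entry, was at 165.1, 172.6 and 161.0 CPM in WT and at 147.4, 148.7 and 146.7 CPM in Srrm2+/- (log2 fold change -0.17, SE 0.039, adjusted p = 0.011). Mrps9 (ENSMUSG00000060679), for the homologue of bacterial S9, was at 116.0, 118.9 and 117.0 CPM in WT and at 110.7, 106.0 and 100.7 CPM in Srrm2+/- (log2 fold change -0.15, SE 0.043, adjusted p = 0.033). In none of the 3 genes did the groups overlap. The calls of Mrps22 and Mrps5 held under all 14 alternatives and that of Mrps9 was lost under 7. The 6 members that fell had WT means of 42.6 to 166.2 CPM, and the 6 that rose had WT means of 19.5 to 38.5 CPM.

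By origin, the calls fell as follows. Of the 47 members with a bacterial homologue, 2 were upregulated and 5 downregulated (14.9% called). Their median log2 fold change was -0.03, with 30 of 47 values below 0. Of the 30 mitochondria-specific members, 4 were upregulated and 1 downregulated (16.7% called), with a median of 0.05 and 20 of 30 values above 0. Both shares lay under the 25.3% of all tested genes. These counts are a description, and the difference between the sets was not tested.

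A few members have symbols that do not match their place in the ribosome. Mrps30 and Mrps18a encode proteins of the large subunit in the mammalian structure, and the product of Mrps36 has been assigned to the 2-oxoglutarate dehydrogenase complex. None of the 3 passed the test, with log2 fold changes of 0.06 (95% interval -0.04 to 0.15) for Mrps30, 0.15 (-0.06 to 0.36) for Mrps18a and 0.02 (-0.11 to 0.14) for Mrps36. Mrps18a, Mrps18b and Mrps18c are paralogues that descend from 1 bacterial gene, S18. Mrps18b was not called (log2 fold change 0.12, interval -0.01 to 0.25), nor was Mrps18c (-0.04, interval -0.16 to 0.08). Placed by structure, 50 large subunit genes had a median of 0.00013 and 26 small subunit genes a median of -0.03, with the same 6 calls in each subunit.

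Members differed far more from each other than between the groups. On the scale of level per length (counts divided by the longest coding transcript and scaled over all genes as in TPM), the mean over all libraries ran from 4.26 (Mrpl42) to 123.4 (Mrpl24), a 29-fold range around a median of 31.2. The levels of 49 members lay within 2-fold of that median. Among Mrpl genes, Mrpl24, Mrpl2 and Mrpl21 had the highest levels per length (123.4, 110.2 and 80.8) and Mrpl42, Mrpl23 and Mrpl57 the lowest (4.26, 4.39 and 4.80). Among Mrps genes, Mrps18b, Mrps9 and Mrps15 had the highest levels (114.2, 87.1 and 62.5) and Mrps16, Mrps26 and Mrps6 the lowest (5.66, 8.06 and 8.23). On this scale, Mrpl24 stood above Mrpl2, and Mrps18b above Mrps9, in each of the 6 libraries. The 3 lowest Mrpl genes changed order between libraries. With lengths taken over the union of all exons, Mrpl2 (112.0) stood above Mrpl24 (84.5). Mrpl13 went from 51.0 to 9.07 and Mrpl42 from 4.26 to 0.89. The order and range of levels thus depended on the length used.

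**Figure D3:**
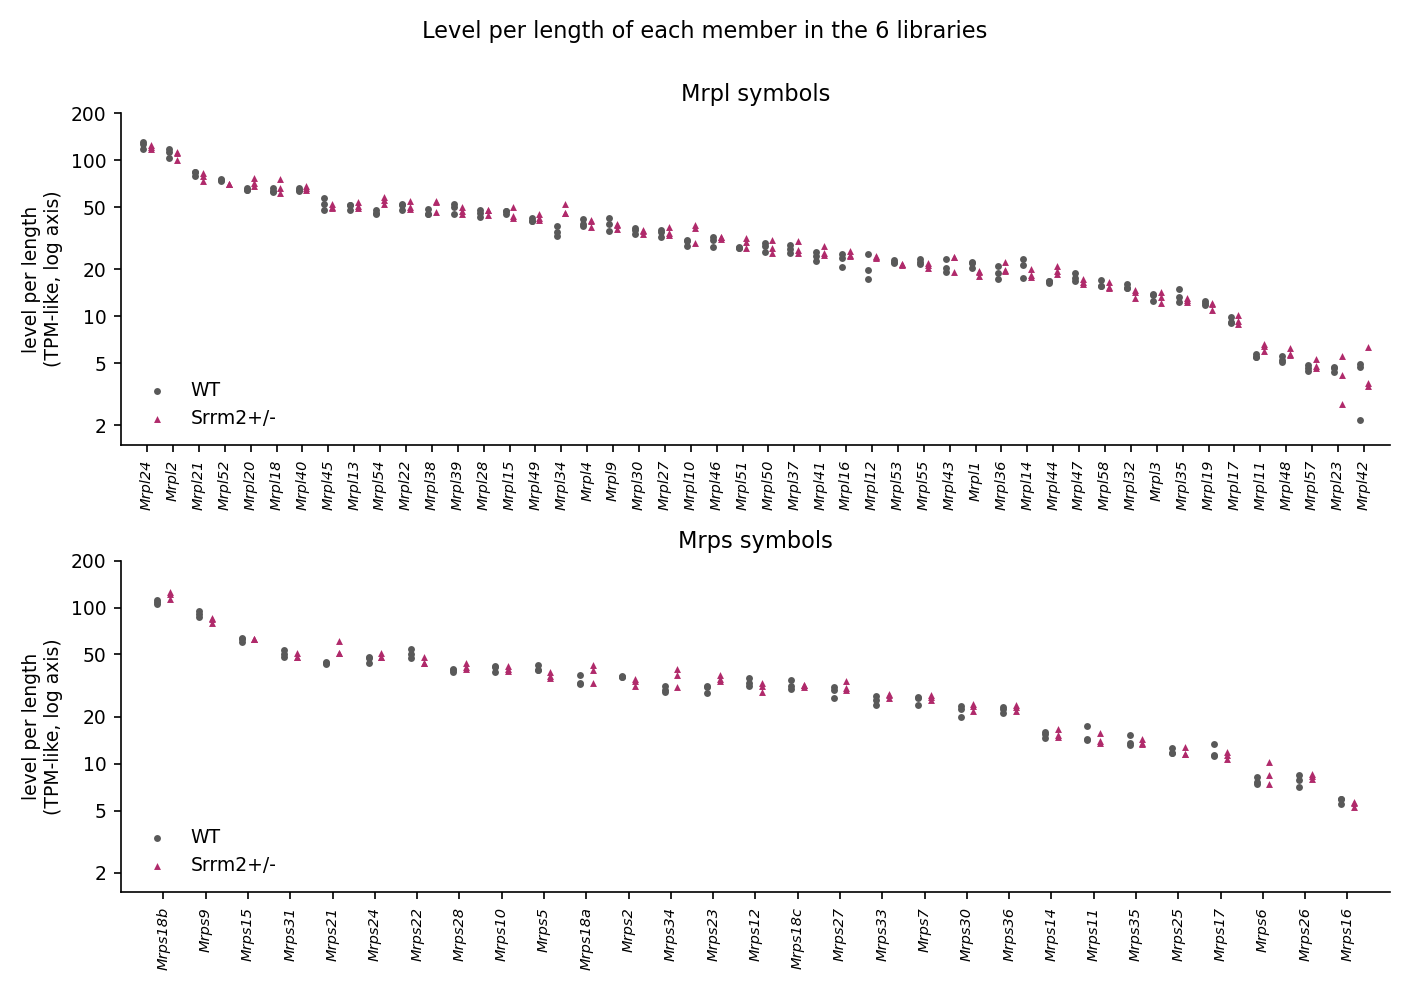
Level per length of each member (TPM-like, log axis) in the 3 WT and 3 Srrm2+/- libraries, ordered within Mrpl (upper) and Mrps (lower) genes by the mean over all 6 libraries. Levels span from 4.26 to 123.4 on average, while WT and Srrm2+/- points of a gene lie side by side.

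Mrpl23, which was listed at a low level, shares its coding bases with a pseudogene. Mrpl23 (ENSMUSG00000037772, chr7:142532686-142540747) encodes the homologue of bacterial L23, which lines the exit of the peptide tunnel. It was listed at 2.79, 3.34 and 3.15 CPM in WT and at 1.82, 2.87 and 3.47 CPM in Srrm2+/-. Its processed pseudogene Mrpl23-ps1, a single-exon copy at chr2:74591330-74591909 on the minus strand, was listed at 39.4, 44.1 and 43.8 CPM in WT and at 51.2, 47.5 and 45.7 CPM in Srrm2+/-. The pseudogene was thus listed far above its parent in every library. The 2 annotated transcripts share an identical stretch of 540 bases that contains all 441 coding bases of Mrpl23, and 510 of the 539 words of the pseudogene transcript (94.6%) occur in Mrpl23. These 510 words are 10.3% of the words over all annotated Mrpl23 transcripts. Whether the low listed level came from the division of reads was not tested. The first 120 bases of the reading frame are shown because the 2 loci cannot be told apart over them, with the start codon in capitals, read from the pseudogene (chr2:74591773-74591892, minus strand, GRCm38).

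Mrpl23 and Mrpl23-ps1: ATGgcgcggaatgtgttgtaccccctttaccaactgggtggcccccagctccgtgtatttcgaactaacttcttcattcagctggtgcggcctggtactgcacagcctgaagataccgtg

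The listed count of Mrpl23 therefore depends in part on an estimate of how shared reads were divided. Alone, Mrpl23 had a log2 fold change of -0.19 (SE 0.22, adjusted p = 0.60). With the counts of Mrpl23-ps1 added, it was at 42.2, 47.5 and 47.0 CPM in WT and at 53.0, 50.4 and 49.2 CPM in Srrm2+/-, and the log2 fold change was 0.16 (SE 0.056, adjusted p = 0.069). The direction thus turned with this choice, and neither value passed the test. Mrpl48 changed less on adding Mrpl48-ps (log2 fold change 0.12 alone and 0.08 with it), and the 3 annotated Mrps36 pseudogenes held almost no counts. Of the 77 members, 21 share at least 15% of their words with transcripts of other genes and 16 share none. The largest shares were in Mrpl53 (84.4%, with Gm42688), Mrps34 and Mrps25 (68.9% of its words in Nr2c2).

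**Figure D4:**
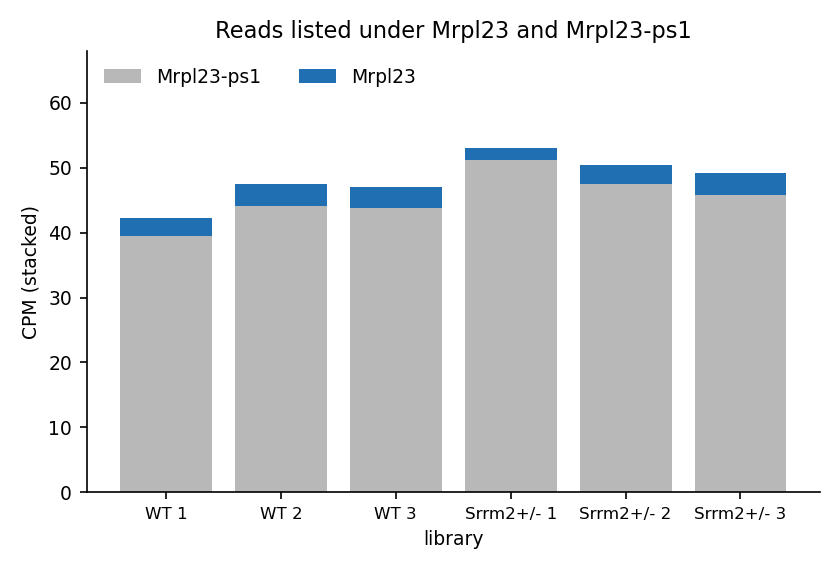
CPM (y axis, stacked from 0) listed under Mrpl23 (blue) and its processed pseudogene Mrpl23-ps1 (grey) in each library. The pseudogene holds 39.4 to 51.2 CPM and Mrpl23 1.82 to 3.47 CPM, although the coding bases of the 2 are identical.

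Several promoters of members hold recognition letters of factors known to act on nuclear genes for mitochondrial proteins. RefSeq start windows (GRCm38.p6, from 250 bases before to 50 bases after the annotated start) were found for 68 members. The NRF1 letters (GCGC, then any base, then TGCGC), searched on both strands, occurred in 13 of the 68 (19.1%), compared with 5.2% of the 27025 genes with a window and 7.2% of the 17491 protein-coding ones. The ETS letters CCGGAAGT, also on both strands, occurred in 11 (16.2%, against 5.7% of protein-coding genes). The YY1 letters (AA, then any base, then ATGGCGGC) occurred in 7 (10.3%, against 1.6%) and the E-box CACGTG, the letters bound by Myc, in 5 (7.4%, against 8.9%). A match of letters is no measure of binding.

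Members with NRF1 letters held calls in both directions. Of the 13, 2 were upregulated (Mrps21 and Mrpl44) and 2 downregulated (Mrps9 and Mrpl32), which is 30.8% beside 25.3% of all tested genes, with a median log2 fold change of -0.04. Of these 4 calls, that of Mrps21 alone held under all alternatives. Their promoters are shown from 120 bases before to 30 bases after the start, with the NRF1 letters in capitals, because the same letters stand in members called in either direction. Mrpl34 and Mrpl1, the largest rise and the largest fall, are set beside them and hold none of the 4 motifs in their RefSeq windows. The window of Mrpl1 lies within the gene span given above, so the bases before that earlier start were not searched. The positions are chr3:95871485-95871634 (minus strand) for Mrps21, chr1:79775898-79776047 (plus strand) for Mrpl44, chr1:42851113-42851262 (plus strand) for Mrps9, chr13:14613008-14613157 (minus strand) for Mrpl32, chr8:71464806-71464955 (plus strand) for Mrpl34 and chr5:96209995-96210144 (plus strand) for Mrpl1.

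Mrps21 (upregulated): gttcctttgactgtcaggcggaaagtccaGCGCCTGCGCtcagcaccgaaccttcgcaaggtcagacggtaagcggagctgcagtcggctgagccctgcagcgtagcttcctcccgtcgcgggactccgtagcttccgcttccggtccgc
Mrpl44 (upregulated): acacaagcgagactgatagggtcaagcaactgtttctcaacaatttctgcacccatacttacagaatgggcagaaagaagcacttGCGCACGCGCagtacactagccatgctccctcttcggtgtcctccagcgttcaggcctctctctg
Mrps9 (downregulated): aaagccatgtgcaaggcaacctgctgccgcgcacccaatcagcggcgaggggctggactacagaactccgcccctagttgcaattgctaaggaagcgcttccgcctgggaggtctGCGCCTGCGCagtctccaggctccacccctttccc
Mrpl32 (downregulated): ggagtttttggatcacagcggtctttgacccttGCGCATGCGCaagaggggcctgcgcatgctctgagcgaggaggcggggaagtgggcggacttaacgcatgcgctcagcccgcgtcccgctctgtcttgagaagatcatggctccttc
Mrpl34 (upregulated): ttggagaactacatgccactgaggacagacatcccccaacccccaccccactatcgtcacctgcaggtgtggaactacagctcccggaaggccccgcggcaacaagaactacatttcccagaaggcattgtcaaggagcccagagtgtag
Mrpl1 (downregulated): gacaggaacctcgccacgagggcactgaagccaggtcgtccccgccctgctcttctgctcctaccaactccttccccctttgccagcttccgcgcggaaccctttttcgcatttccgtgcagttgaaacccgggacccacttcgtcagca

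The first base of the NRF1 letters lay at position -91 from the start in Mrps21, -35 in Mrpl44, -5 in Mrps9 and -87 in Mrpl32. Of the 11 members with ETS letters, 0 were upregulated and 1, Mrps22, was downregulated (9.1% called beside 25.3% of all tested genes, median 0.05). Of the 7 members with YY1 letters and the 5 with an E-box, 0 passed the edgeR test and 0 passed with DESeq2 or limma, while 2 and 1 had an unadjusted p under 0.05.

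Many members share a start region with another gene. For 18 of 77 members (23.4%), a protein-coding gene transcribed the other way started upstream, within 1000 bases and without overlap. This was so for 6.8% of all 22028 annotated protein-coding genes. In 17 of the 18 pairs the starts were under 210 bases apart. Pairs whose start regions overlap were not counted, such as Mrpl44 with Wdfy1. Of these 18 members, 2 were upregulated (Mrps34 and Mrpl54) and 2 downregulated (Mrps5 and Mrpl32). That share (22.2%) is near the 25.3% of all tested genes. Of the 18 partners, 1 was upregulated and 1 downregulated, and in 0 of these pairs did both genes pass the test. Mrpl47 and Ndufb5, which were both downregulated, were not among these pairs. The RefSeq start window of Mrpl47 (chr3:32736706-32737005, minus strand) nevertheless holds the annotated start of Ndufb5 (chr3:32736990, plus strand). The 0 thus depends on how pairs were defined. The start of Mrpl54 lies 26 bases from that of Apba3, which had a log2 fold change of 0.03 (adjusted p = 0.79) beside 0.22 for Mrpl54. The start of Mrpl49 lies 59 bases from that of Fau, which encodes a precursor of a cytosolic ribosomal protein. Fau was at 211.5, 217.4 and 227.1 CPM in WT and at 245.6, 255.3 and 245.6 CPM in Srrm2+/- and rose (log2 fold change 0.19, adjusted p = 0.010), while Mrpl49 had a log2 fold change of 0.03 (adjusted p = 0.67). The starts of Mrpl30 and Mitd1 are 66 bases apart, and Mitd1 fell (log2 fold change -0.20, adjusted p = 0.023) beside -0.04 for Mrpl30 (adjusted p = 0.67). The difference in response within a pair was not tested.

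Other mitoribosome proteins, assembly genes and translation factors gave few calls too, beside the 25.3% of all tested genes that were called. Of the 5 mitoribosome proteins with other symbols, such as Dap3 of the small subunit, 0 passed the edgeR test (0 at an unadjusted p under 0.05 and 0 with DESeq2 or limma, median log2 fold change -0.02). Of 28 genes for assembly and rRNA modification, 0 were upregulated and 2 downregulated (7.1% called). These were Mpv17l2, an assembly factor of the large subunit (log2 fold change -0.34, adjusted p = 0.012), and Mrm1, an rRNA methyltransferase (-0.26, adjusted p = 0.029). Mpv17l2 was at 13.4, 15.6 and 15.4 CPM in WT and at 12.02, 12.05 and 11.04 CPM in Srrm2+/-. Of 16 translation factors, 1 was upregulated (6.25% called), Tufm, the mitochondrial EF-Tu that delivers charged tRNAs (0.16, adjusted p = 0.028).

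Charging of mitochondrial tRNAs held calls in both directions. Of its 22 genes, 2 were upregulated and 3 downregulated, a share (22.7%) near the 25.3% of all tested genes. The synthetase genes Lars2 (log2 fold change 0.28) and Iars2 (0.14) rose, whereas the synthetase genes Cars2 (-0.28) and Mars2 (-0.19) and the amidotransferase subunit gene Qrsl1 (-0.22) fell. Of 17 genes for replication, transcription and processing of the mitochondrial genome, 11.8% were called. Polg, the DNA polymerase, rose (0.20) and Tefm, a transcription elongation factor, fell (-0.21). Neither of the mitochondrial rRNAs passed the edgeR test (log2 fold changes of 0.06 and 0.24, 0 at an unadjusted p under 0.05 and 0 with DESeq2 or limma), and their values varied widely, with mt-Rnr2 at 1733, 2682 and 2781 CPM in WT. Of the 13 mRNAs that the mitoribosome translates, 15.4% were called. Among them, mt-Co2 rose (0.31, adjusted p = 0.045) and mt-Nd6 fell (-0.36, adjusted p = 0.00036).

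**Figure D5:**
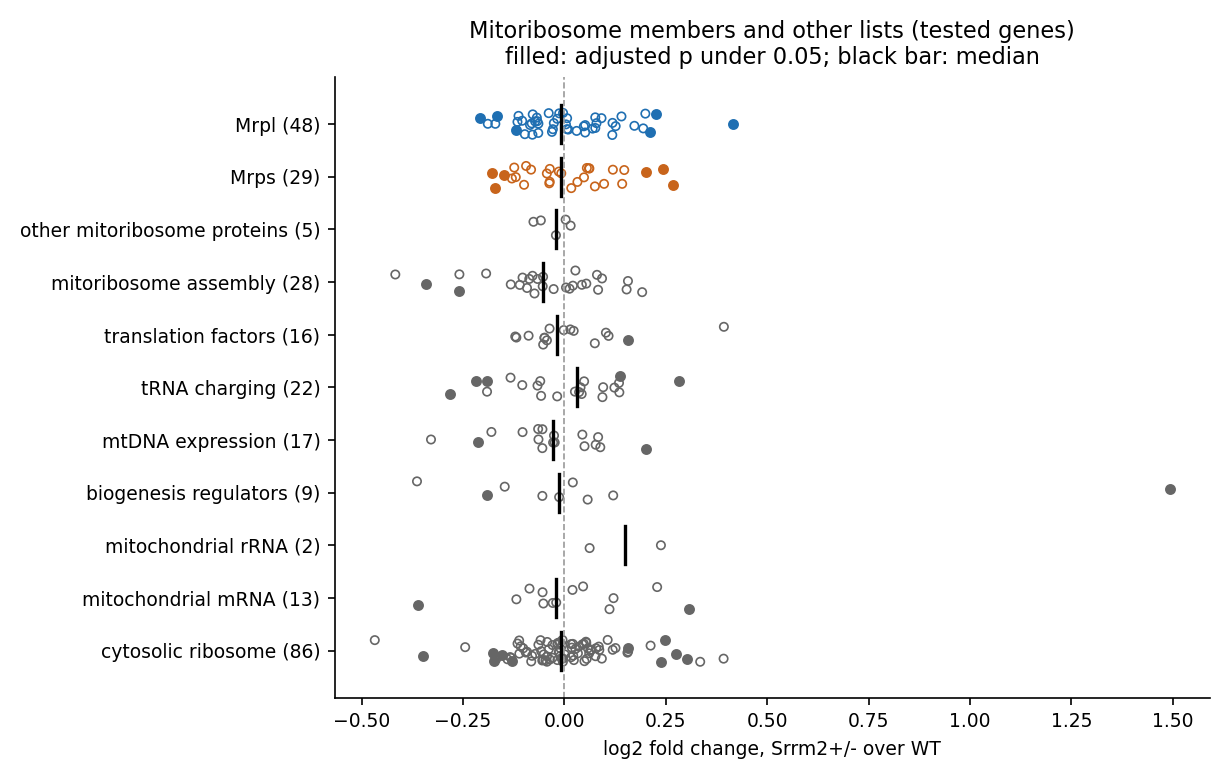
Log2 fold change, Srrm2+/- over WT (x axis), of the tested genes of each list (rows, number in brackets), with called genes filled and the median as a black bar. The Mrpl and Mrps medians lie at -0.01, and the point farthest right is Myc at 1.49.

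Among 9 tested regulators of mitochondrial biogenesis, 1 was upregulated and 1 downregulated, a share (22.2%) near the 25.3% of all tested genes. Myc, a growth regulator whose known targets include ribosome genes, was at 2.87, 3.70 and 3.85 CPM in WT and at 9.64, 9.16 and 10.5 CPM in Srrm2+/- (log2 fold change 1.49, SE 0.13, adjusted p = 5.42e-05). Gabpa, the DNA-binding subunit of an ETS factor, was at 228.8, 224.7 and 225.3 CPM in WT and at 192.4, 199.7 and 203.0 CPM in Srrm2+/- (log2 fold change -0.19, SE 0.037, adjusted p = 0.0059). Neither Nrf1 (-0.01, 95% interval -0.10 to 0.08) nor Yy1 (-0.05, interval -0.18 to 0.07) was called. Their part in the values of the members was not tested.

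The cytosolic ribosome gave a similar picture. Of 86 tested cytosolic ribosomal protein genes, 5 were upregulated and 5 downregulated (11.6%), with a median log2 fold change of -0.01 and an SD of 0.13, beside 15.6%, -0.01 and 0.12 for the mitochondrial members.

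Summed markers of ESCs, fibroblasts and trophoblast did not overlap between the groups, whereas those of primitive endoderm did. Calls of markers are given beside the 25.3% of all tested genes that were called. Of 10 ESC markers, 1 was upregulated and 6 were downregulated, and their summed expression was 5219 to 5408 CPM in WT and 4517 to 4644 CPM in Srrm2+/-. Fibroblast markers summed to 3.36 to 3.63 CPM in WT and 6.53 to 9.89 CPM in Srrm2+/-, with 3 of 5 tested upregulated. Thy1, of the same list, went the other way without being called (mean 1.93 CPM in WT and 1.19 CPM in Srrm2+/-, log2 fold change -0.70). Trophoblast markers summed to 52.0 to 52.9 CPM in WT and 32.2 to 35.3 CPM in Srrm2+/-, with 1 of 4 tested upregulated (Eomes) and 1 downregulated (Tfap2c). Tfap2c made up most of that sum, and without it the other trophoblast markers summed to 1.72 to 1.89 CPM in WT and 2.26 to 2.61 CPM in Srrm2+/-. Cdx2 was at 0 counts in all 3 WT libraries and at 5, 8 and 17 counts in Srrm2+/-. In the same order of groups, primitive endoderm markers summed to 2.39 to 2.70 and 2.56 to 3.64 CPM, with 1 of 5 tested upregulated (Dab2). Sox7, of the same list, was lower in Srrm2+/- without being called (log2 fold change -0.77). No marker was at 0 counts in all 6 libraries, and the part of these shifts in the values of the members was not tested.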

How the data were processed

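The authors ran Kallisto 0.46.1 on paired-end total RNA reads (TruSeq Stranded kit) against GENCODE M24 transcripts and deposited estimated counts per gene, without normalisation. The study used the added spike-ins to compare observed with known fold changes. The strand setting is not given in the sources used here. Estimated counts were rounded to whole numbers. Symbols came from GENCODE M21 on the same build (42156 of 42450 identifiers matched). Genes past filterByExpr (minimum count 10, minimum total 15) were tested in all 6 libraries with edgeR 4.0.16 in R 4.3.3 (TMM, glmQLFit and glmQLFTest, a two-sided test of genotype, no covariate) and Benjamini-Hochberg adjustment over 18905 genes, and called at an adjusted p under 0.05. CPM used TMM-scaled totals. The fits were tested on simulated data, where false calls made up more than the nominal share in edgeR, limma and DESeq2. The simulation held far fewer changed genes than were called here, so the false share among the present calls was not measured. Each replicate was a separately thawed batch of 1 line, so P-values measure the spread between such batches and not between clones.

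The rule for members reads symbols only, but the members and gene lists were chosen with earlier results of these data known. Genes named were Srrm2, called members, the 3 highest and lowest levels per subunit, members placed differently by structure or sharing a bacterial homologue, and up to 4 called genes of each other list. Mrpl48, partner genes, word-sharing genes and uncalled regulators were named after their values were seen, as was Iars2. Alternatives were RLE and upper quartile scaling, DESeq2 1.42.0, limma 3.58.1 (voom), other filters, a replicate block, leaving out mitochondrial, rRNA and short RNA genes, other thresholds, and leaving out each library. Shared words were counted over all annotated transcripts, in either orientation.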

Additional observations from a re-analysis of the deposited data

How the results depend on the processing

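The number of members called was 7 to 12 over all scalings, tests, filters, the replicate block and the libraries left out, and 7 of the 12 calls (Mrpl34, Mrps21, Mrpl54, Mrps23, Mrps5, Mrps22 and Mrpl1) held under each of those 14 alternatives. Mrps34, Mrpl44, Mrpl32, Mrps9 and Mrpl47 lost the call under 5, 6, 5, 7 and 11 of them, and no called member changed direction. The cause was not tested. Over the same settings, 15.2% (filter of at least 1 count) to 34.6% (filter of at least 1 CPM) of all tested genes were called, beside 9.1% to 15.6% of the members. Calls over all genes thus also moved with the setting. At an adjusted p under 0.01, 2 Mrpl and 2 Mrps genes were called, and when calls at 0.05 also had to change by 0.32 or more in log2, 1 Mrpl and 0 Mrps genes. The shares of all genes at these stricter limits are not given here, so these counts are no result about the members. Replicate numbers did not pair the libraries (correlations of deviations -0.028, -0.034 and -0.030), and with the replicate block 3 Mrpl genes and 4 Mrps genes were called. Leaving out 1 library gave 3 to 5 Mrpl and 4 to 5 Mrps genes, beside 18.1% to 21.1% of all tested genes. The fewest Mrpl calls came without Srrm2+/- replicate 3, which also took the Mrps median to 0.0278 (range -0.0199 to 0.0278) and the difference of medians, Mrpl minus Mrps, to -0.0405 (range -0.0405 to 0.0168). That difference was 0.0251 with subunits assigned by structure. Among uncalled members, 4 of those named turned sign without single libraries, from log2 fold changes of 0.14 (Mrpl42), 0.06 (Mrps26), -0.01 (Mrps15) and -0.19 (Mrpl23): Mrpl42 to -0.17 and -0.12 (range -0.174 to 0.345), Mrps26 to -0.0040 (range to 0.115), Mrps15 to 0.0065 and 0.0278 (from -0.0434) and Mrpl23 to 0.0343 (from -0.398), and Mrpl23 turned to 0.16 with its pseudogene added, a choice made after seeing the data. With exon union lengths the median level per length was 23.0 in place of 31.2. Mrpl42 and Mrpl23 had the largest standard errors of all members (0.33 and 0.22), and the cause was not tested.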

Other observations

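Mrpl23 lies 34.8 kb from the imprinted gene H19 on chromosome 7. H19, a long noncoding RNA, was at 0, 0 and 7 counts in WT and at 253, 315 and 210 counts in Srrm2+/-. Igf2, the growth factor gene beyond it, was at 99, 76 and 66 counts in WT and at 894, 1119 and 784 counts in Srrm2+/- (log2 fold change 3.27, adjusted p = 2.9e-06 by edgeR). Both neighbours rose without overlap between the groups, whereas Mrpl23 was not called with or without the counts of its pseudogene, which itself lies on chromosome 2. As the reads of Mrpl23 and Mrpl23-ps1 cannot be told apart over the coding bases, the expression of Mrpl23 at its own locus was not measured separately here.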
